A study of Mus musculus with 8 samples.

Results

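The genes described here were 10 genes of the Notch pathway in immortalized mouse dental papilla cells: the receptors Notch1, Notch2, Notch3 and Notch4, the ligands Jag1 and Jag2, and the target genes Hey1, Hey2, Heyl and Hes1. They were chosen by gene symbol from the 22609 symbols of the deposited gene table, and all 10 were found there. Earlier results of these data were known at this choice, so shares of all genes given beside the members are description only. Total RNA of the iBmp2 fx/fx cells, a line with floxed Bmp2 alleles (Bmp2 floxed/floxed in the labels), and of the iBmp2 ko/ko cells, a line in which Bmp2 was deleted (Bmp2 KO), was sequenced after 6, 24, 48 and 72 h of culture. Both lines are immortalized, and each genotype is represented by its own line, so genotype and line cannot be told apart. There was 1 library per genotype and time, 8 in all. The culture times therefore served as replicates, and nothing in the labels says that the 8 libraries came from independent cultures. In a fit of genotype alone the p-values thus measure differences against the spread over culture times. Where culture time was itself a term of the fit, they measure them against the spread left after that term.

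Notch receptors are single-pass membrane proteins that are activated by ligands on a neighbouring cell. Ligand binding exposes the receptor to cleavage by ADAM proteases and then by γ-secretase, and the released intracellular domain enters the nucleus, where it joins the DNA-binding protein Rbpj and a Mastermind coactivator to switch on genes of the Hes and Hey families. The Hes and Hey proteins are basic helix-loop-helix repressors that restrain differentiation. In the tooth, Notch receptors and Jagged or Delta ligands are expressed in the dental epithelium and mesenchyme, and Hey1 and Hes1 can also be induced by BMP signals through Smad proteins.

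The reads counted on genes numbered 25890110 to 32415665 in a library. A single Bmp2 read (1) was counted, at 24 h in iBmp2 fx/fx cells, and the other 7 libraries had 0, so its transcript was not detectable at this depth (3 reads correspond to 0.0926 to 0.116 CPM, the count scaled to a total of 1e+06 reads on genes, a limit that covers counting error only) and could not check the genotype labels. Of 15 dental mesenchyme markers 12 had at least 1 CPM in every library, while Lhx8 and Barx1 had at most 1 read. None of the 12 tested passed the adjusted limit, and 8 had negative and 4 positive log2 fold changes, from -2.55 for Dlx2 (adjusted p = 0.118) to 0.72 for Vim (adjusted p = 0.275). Dlx2 stood at 44.5 CPM in the library labelled iBmp2 ko/ko at 24 h, against 41.0 to 55.4 CPM in iBmp2 fx/fx and 3.74 to 17.2 CPM in iBmp2 ko/ko cells at 6, 48 and 72 h. Carried by Vim, Col1a1 and Col1a2, the dental mesenchyme sum at these 3 times was 6997 to 9011 CPM in iBmp2 fx/fx and 9295 to 13570 CPM in iBmp2 ko/ko cells. Of the 2 odontoblast markers, Dspp had at most 1 read and Dmp1 at most 8, and neither was tested. Dmp1 stood at 0.0958 to 0.247 CPM in iBmp2 fx/fx and 0 to 0.0386 CPM in iBmp2 ko/ko cells at 6, 48 and 72 h. At 24 h it had 0.0353 CPM in the iBmp2 fx/fx library and 0.116 CPM in the library labelled iBmp2 ko/ko. Of the 9 mural cell markers, Kcnj8 and Abcc9 were at 0 in all 8 libraries, Rgs5 and Myh11 had at most 11 reads, and Pdgfrb, Mcam, Acta2 and Tagln were above 1 CPM in every library. Of these 4, Acta2 (log2 fold change 0.80), Pdgfrb (0.49) and Tagln (0.42) were above 0 and Mcam (-0.53) below it, none past the adjusted limit (adjusted p from 0.408 to 0.854). The mural markers summed to 981 to 1603 CPM in iBmp2 fx/fx and 1204 to 2516 CPM in iBmp2 ko/ko cells at 6, 48 and 72 h, with the higher sum in iBmp2 ko/ko cells at each time, and to 948.5 CPM in the library labelled iBmp2 ko/ko at 24 h. The remaining mural marker, Cspg4, passed the adjusted limit as lower and had at most 29 reads, with 0.511 to 0.933 CPM in iBmp2 fx/fx libraries, 0.131 to 0.155 CPM in iBmp2 ko/ko cells at 6, 48 and 72 h and 0.964 CPM in the library labelled iBmp2 ko/ko at 24 h (log2 fold change over 6 libraries -2.37, adjusted p = 0.0441 in edgeR). Of the 4 leukocyte markers, Ptprc had at most 2 reads and Emr1 had 0, while Cd68 (log2 fold change -1.43, adjusted p = 0.262) and Csf1r (-1.62, adjusted p = 0.186) were detected in every library. The leukocyte markers summed to 4.09 to 14.1 CPM in iBmp2 fx/fx libraries, 2.63 to 3.40 CPM in iBmp2 ko/ko cells at 6, 48 and 72 h and 6.24 CPM in the library labelled iBmp2 ko/ko at 24 h. The 3 Schwann cell markers summed to 1.15 to 1.33 CPM in iBmp2 fx/fx and 1.35 to 2.81 CPM in iBmp2 ko/ko cells at 6, 48 and 72 h. The part of these markers in the results was not tested. In bulk RNA, fewer expressing cells and less RNA per cell cannot be told apart.

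The genotypes were compared over the 6 libraries of 6, 48 and 72 h, 3 per genotype, with edgeR's quasi-likelihood test, and the 24 h libraries are shown apart. The adjusted limit asked for a change of at least 1 in size on the log2 scale and a p, adjusted after Benjamini and Hochberg over all 13121 genes tested, of 0.05 or less. The unadjusted limit asked for a change above 1 in size and an unadjusted p under 0.05. Of the 10 genes 9 were tested, and Heyl was too low. In the iBmp2 ko/ko cells 8 of the 9 were lower and Hey2 was higher, with a median log2 fold change of -1.05 against 0.03 over all genes tested. Only Hey1 passed the adjusted limit, as did 1.29% of all genes in that direction. At the unadjusted limit 5 genes were lower (Notch3, Notch4, Jag2, Hey1 and Hes1), against 4.04% of all genes tested, and 1 was higher (Hey2), against 3.31%.

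**Figure D1:**
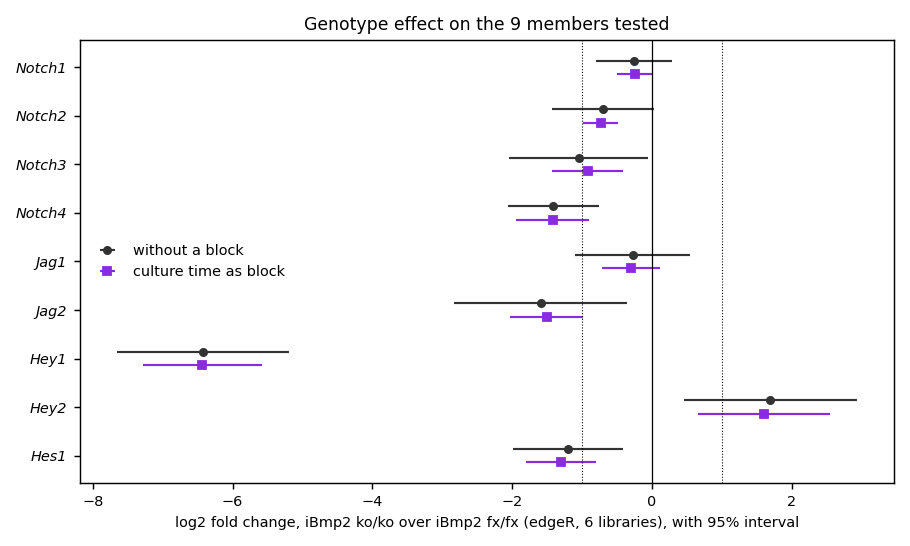
Log2 fold change of the 9 genes tested, iBmp2 ko/ko over iBmp2 fx/fx cells, over 6 libraries in edgeR without a block (circles) and with culture time as a block (squares), with 95% intervals; dotted lines mark 1 and -1. Hey1 lay at -6.42 and Hey2 was the only gene above 0.

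The libraries of a culture time deviated together from the means of their genotypes, and a fit with the culture time as a block removed that shared variation. With this block Notch4, Jag2, Hey1 and Hes1 passed the adjusted limit as lower, against 4.67% of all genes tested, and Hey2 as higher, against 3.78%. Over the 6 libraries the genotypes did not overlap, with the iBmp2 ko/ko libraries below, for Notch4, Jag2, Hey1 and Hes1, which 10.5% of all genes tested also showed. Hey1 passed the filter on low counts, 10 reads at the median depth in 3 libraries, only through the iBmp2 fx/fx libraries, so its inclusion already required high iBmp2 fx/fx levels. Hey2 needed at least 1 iBmp2 ko/ko library to pass.

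Per kilobase of exon (RPKM, the CPM divided by the kilobases of merged exons), Hes1 and Notch2 were the most abundant members in iBmp2 fx/fx cells at the 3 times, with 22.4 ± 1.5 and 21.6 ± 4.94 RPKM (SD, n = 3), and their ranges overlapped. Hey1 followed with 10.7 ± 2.97 RPKM and overlapped neither Notch2 above nor Notch3 below. Notch3, Notch1, Jag1, Jag2 and Notch4 came next, with means from 3.62 down to 1.05 RPKM and neighbours in this order that overlapped. Hey2 had 0.157 ± 0.0464 RPKM, and Heyl was at or under 3 reads in every library.

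In the iBmp2 ko/ko cells Notch2 (13.3 ± 4.36 RPKM, SD, n = 3) and Hes1 (9.68 ± 4.39 RPKM) remained at the top and overlapped, and they were clear of all other members. Hey1, in the third place in iBmp2 fx/fx cells, stood ninth there with 0.123 ± 0.0781 RPKM, below Hey2 at 0.509 ± 0.294 RPKM and Notch4 at 0.397 ± 0.0912 RPKM, with no overlap between Notch4 and Hey1.

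**Figure D2:**
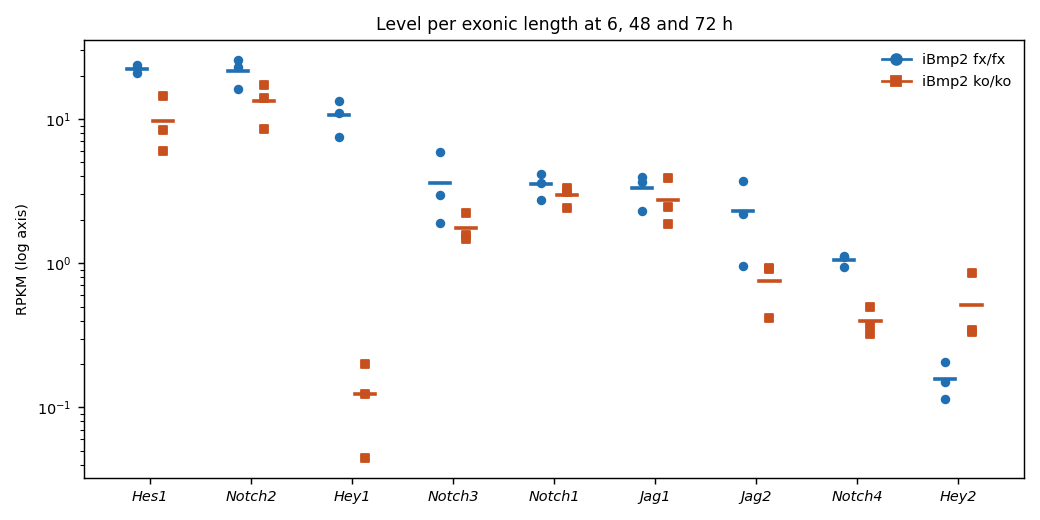
Levels of the 9 members above the count filter in RPKM on a log axis, ordered by their mean in iBmp2 fx/fx cells. Points are the libraries of 6, 48 and 72 h and bars their means; Hey1 fell from 10.7 to 0.123 RPKM on average.

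Of the target genes, Hey1 and Hes1 are shown with the 250 bases before the start of their coding transcript, since both were lower in iBmp2 ko/ko cells and both are known targets of Rbpj and of BMP signals. The windows are from mm9, chr16:30065176-30065425 on the plus strand for Hes1 and chr3:8667040-8667289 on the minus strand for Hey1. The Hes1 window lies inside the annotated gene, which has a longer transcript, but in none of its exons, and the Hey1 window lies before the gene. Capitals mark the Rbpj core TGGGAA and the Smad1/5 element GGCGCC on either strand. They read 5′ to 3′:
Hes1: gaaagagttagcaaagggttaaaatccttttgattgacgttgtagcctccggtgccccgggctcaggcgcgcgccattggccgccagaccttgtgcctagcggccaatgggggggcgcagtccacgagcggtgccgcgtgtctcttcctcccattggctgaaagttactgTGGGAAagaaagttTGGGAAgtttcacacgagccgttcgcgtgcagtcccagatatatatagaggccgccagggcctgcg
Hey1: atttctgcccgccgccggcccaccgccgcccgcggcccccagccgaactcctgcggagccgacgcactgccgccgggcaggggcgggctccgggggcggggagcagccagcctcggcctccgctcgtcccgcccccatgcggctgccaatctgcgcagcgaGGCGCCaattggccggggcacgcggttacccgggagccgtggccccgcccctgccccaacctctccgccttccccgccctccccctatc

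The Hes1 window held the Rbpj core at bases -80 to -75 and -66 to -61 from the start, both on the plus strand of the gene, and the Hey1 window held no TGGGAA and 1 GGCGCC at -89 to -84. Among 22367 promoter windows of the same length, 21.0% held TGGGAA on either strand, 2.64% held it more than once and 11.3% held GGCGCC. Of the 10 members, Hes1, Hey2 and Notch1 held TGGGAA, and Hey1 alone held GGCGCC. The Hey1 window also held CACGNG, the E box form that Hes and Hey proteins bind, once (-71 to -66) and the Hes1 window 4 times. Of all windows 26.1% held it at least 1 time and 10.4% 2 or more times. The N box CACNAG, the other Hes element, was found 3 times in the Hes1 window, in 2 of these on the same bases as a CACGNG. It was not found in the Hey1 window. Among all windows 35.6% held CACNAG at least 1 time and 7.83% 2 or more times. These are matches of letters in a short window and not measured sites.

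Hey1 (ENSMUSG00000040289.3, chromosome 3 of mm9, 8663362 to 8667039, minus strand) encodes a repressor that is a direct target of both Notch and BMP signals. It had 760, 958 and 519 reads in the iBmp2 fx/fx libraries of 6, 48 and 72 h, which is 24.4, 29.6 and 16.6 CPM. The iBmp2 ko/ko libraries had 13, 3 and 7 reads, or 0.442, 0.0981 and 0.270 CPM. All 3 iBmp2 ko/ko libraries were far below every iBmp2 fx/fx library. Hey1 fell by 6.42 on the log2 scale with a standard error of 0.52 (adjusted p = 0.00502), and its log2 fold change stayed between -6.95 and -6.01, past the adjusted limit, when any 1 library was left out. It had the third lowest log2 fold change of the 13121 genes tested. This rank is no independent support, since Hey1 passed the filter on low counts only through the iBmp2 fx/fx libraries.

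Taken time by time, Hey1 was lower in iBmp2 ko/ko cells by 55.3-fold at 6 h (95% interval 32.1 to 104), 301-fold at 48 h (103 to 1464) and 61.3-fold at 72 h (29.5 to 153). These exact intervals compare 1 library with 1 and cover counting error only. The 48 h ratio rests on 3 reads. Between the 24 h libraries the order was the opposite, with 6.21 CPM in the iBmp2 fx/fx library and 25.2 CPM in the library labelled iBmp2 ko/ko, which lay within the range of the other iBmp2 fx/fx libraries. With all 8 libraries the log2 fold change of Hey1 was -1.60 ± 1.37 (SE; adjusted p = 0.673), and with the block over 8 libraries it was -4.65 ± 1.82 (adjusted p = 0.182).

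Hes1 (ENSMUSG00000022528.7, chromosome 16, 30064470 to 30067882, plus strand) encodes the best known Notch-induced repressor, which keeps progenitor cells undifferentiated. Its levels were 48.2, 42.3 and 46.5 CPM in the iBmp2 fx/fx libraries of 6, 48 and 72 h and 17.2, 12.3 and 29.7 CPM in iBmp2 ko/ko libraries. The groups did not overlap, and the iBmp2 ko/ko library of 72 h was the closest to the iBmp2 fx/fx range. On the log2 scale the genotypes differed by -1.20 ± 0.34 (SE; adjusted p = 0.158 without a block), and by -1.30 ± 0.21 with the block (adjusted p = 0.00576). Without the iBmp2 ko/ko library of 72 h it was -1.67 (adjusted p = 0.0168), past the adjusted limit, and without that of 48 h it was -0.94, past neither limit. At 24 h the order was turned, with 34.3 CPM in the iBmp2 fx/fx library and 44.2 CPM in the library labelled iBmp2 ko/ko.

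Hey2 (ENSMUSG00000019789.8, chromosome 10, 30552165 to 30562607, minus strand), the family member best known from the heart and arteries, was low in all libraries. It had 9, 17 and 12 reads in the iBmp2 fx/fx libraries of 6, 48 and 72 h and 25, 27 and 56 reads in iBmp2 ko/ko libraries, or 0.289, 0.524 and 0.383 CPM against 0.851, 0.883 and 2.16 CPM. The groups did not overlap, as was the case in this direction for 8.76% of all genes tested, and the 72 h iBmp2 ko/ko library was the highest. In edgeR a log2 fold change of 1.70 ± 0.53 (SE; adjusted p = 0.209) was fitted, and one of 1.61 ± 0.40 with the block (adjusted p = 0.0274). Without the 72 h iBmp2 ko/ko library it was 1.07 and without the 6 h iBmp2 fx/fx library 1.49, both past neither limit. The interval of the 48 h ratio alone, 0.885 to 3.29, included 1. At 24 h there were 10 reads in the iBmp2 fx/fx library and 5 in the library labelled iBmp2 ko/ko, a ratio of 0.546 (0.146 to 1.75) that was not distinguishable from 1 at this depth.

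Heyl (ENSMUSG00000032744.4, chromosome 4, 122910799 to 122927118, plus strand), the third Hey gene, which is known from vascular smooth muscle, had 3, 0, 0 and 2 reads in the iBmp2 fx/fx libraries of 6, 24, 48 and 72 h and 1, 2, 0 and 1 in iBmp2 ko/ko libraries. All 8 values were at or under 3 reads, so no fold change is given. Per length, Hey1 was thus the main Hey transcript of the iBmp2 fx/fx line, whereas in that of iBmp2 ko/ko cells at 6, 48 and 72 h the mean of Hey2 was above that of Hey1 in RPKM.

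**Figure D3:**
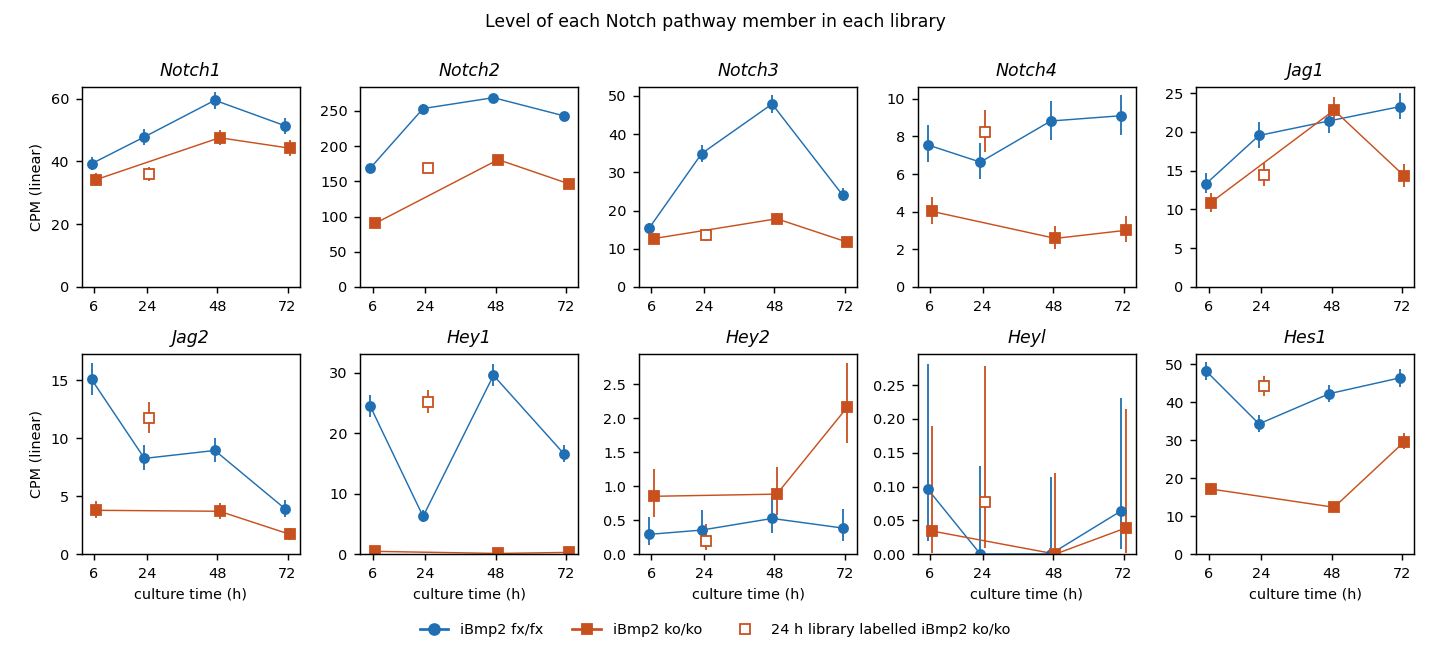
Level of each of the 10 genes in CPM on linear axes against culture time in hours. Circles are the iBmp2 fx/fx libraries, squares the iBmp2 ko/ko libraries and the open square the 24 h library labelled iBmp2 ko/ko; vertical bars are exact 95% counting intervals. The open square of Hey1 stands at 25.2 CPM, while the other 3 iBmp2 ko/ko libraries are at 0.0981 to 0.442 CPM.

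Of the receptors, Notch2 (ENSMUSG00000027878.9, chromosome 3, 97817461 to 97954290, plus strand) was the most abundant per exonic length in every library. It had 169, 253, 269 and 243 CPM in the iBmp2 fx/fx libraries of 6, 24, 48 and 72 h. The libraries labelled iBmp2 ko/ko had 90.2, 169, 181 and 147 CPM. At each of the 4 times, 24 h included, the library labelled iBmp2 ko/ko was lower, by 1.49-fold at 48 h up to 1.87-fold at 6 h. Over the 6 libraries the ranges overlapped, because the 6 h iBmp2 fx/fx library was below the 48 h iBmp2 ko/ko library. On the log2 scale the genotypes differed by -0.70 ± 0.31 (SE; adjusted p = 0.383), and by -0.73 ± 0.11 with the block (adjusted p = 0.00389), under the fold limit in both fits.

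Notch1 (ENSMUSG00000026923.8, chromosome 2, 26313423 to 26372183, minus strand), the broadly expressed receptor, had 39.3, 47.8, 59.5 and 51.4 CPM in iBmp2 fx/fx libraries. The libraries labelled iBmp2 ko/ko had 34.2, 36.0, 47.6 and 44.2 CPM, in the order 6, 24, 48 and 72 h. At each time it was lower in iBmp2 ko/ko cells, but by 1.33-fold at most, and the ranges overlapped. Its log2 fold change was -0.25, with a 95% interval of -0.80 to 0.30 (adjusted p = 0.719), and with the block the interval was -0.50 to 0.01 (adjusted p = 0.147).

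Notch3 (ENSMUSG00000038146.7, chromosome 17, 32257765 to 32303825, minus strand), a receptor known from mural and mesenchymal cells, had 15.3, 34.9, 47.9 and 24.1 CPM in iBmp2 fx/fx libraries. The libraries labelled iBmp2 ko/ko had 12.7, 13.5, 17.9 and 11.7 CPM. The iBmp2 fx/fx levels varied 3.13-fold with culture time and those labelled iBmp2 ko/ko, with 24 h included, 1.52-fold. The difference was small at 6 h (1.21-fold, 1.05 to 1.39) and larger at 24 h (2.58-fold, 2.28 to 2.92), 48 h (2.68-fold, 2.43 to 2.96) and 72 h (2.05-fold, 1.79 to 2.35). In edgeR a log2 fold change of -1.05 ± 0.42 (SE; adjusted p = 0.329) was fitted, and one of -0.92 ± 0.22 with the block (adjusted p = 0.0225), just under the fold limit.

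Notch3 passed neither limit when 1 library was left out in 4 of 6 cases. The log2 fold change was then nearest to 0, at -0.50, without iBmp2 fx/fx at 48 h. It was -0.95 without iBmp2 ko/ko at 6 h, -1.25 without it at 48 h and -0.97 without it at 72 h. On the opposite strand of Notch3, the lincRNA Gm17276 shares 488 exonic bases with it. Gm17276 had 48, 87, 158 and 51 reads in iBmp2 fx/fx libraries and 23, 20, 49 and 21 in those labelled iBmp2 ko/ko. The order of times is that of the 476, 989, 1552 and 754 reads of Notch3 in iBmp2 fx/fx cells. The strand setting of the counting is not given in the sources used here, so reads of this pair cannot be told apart. The same holds for Notch1 and the lincRNAs 0610009E02Rik (1068 shared bases, 189 to 288 reads per library) and Gm13568 (414 shared bases, 36 to 82 reads).

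Notch4 (ENSMUSG00000015468.8, chromosome 17, 34701213 to 34725448, plus strand), a receptor known mainly from endothelium, was the least abundant receptor per exonic length. It had 7.56, 8.82 and 9.10 CPM in the iBmp2 fx/fx libraries of 6, 48 and 72 h and 4.02, 2.58 and 3.01 CPM in iBmp2 ko/ko libraries, with no overlap. On the log2 scale the genotypes differed by -1.41 ± 0.28 (SE; adjusted p = 0.0552), and by -1.42 ± 0.23 with the block (adjusted p = 0.00506). With the 24 h iBmp2 fx/fx library added, it also passed the adjusted limit without a block, at -1.34 (adjusted p = 0.0261), as did 3.12% of all genes. At 24 h the library labelled iBmp2 ko/ko had 8.25 CPM and the iBmp2 fx/fx library 6.64 CPM. The 7 endothelial markers summed to 2.33 to 5.65 CPM in iBmp2 fx/fx and 1.97 to 4.90 CPM in iBmp2 ko/ko libraries, and Cdh5 and Tie1 had at most 4 and 1 reads. Kdr was lower in iBmp2 ko/ko cells (log2 fold change -1.32, adjusted p = 0.191) and Tek higher (1.62, adjusted p = 0.246), neither past the adjusted limit, and Vwf (-0.47, adjusted p = 0.867) was higher at some times and lower at others. The part of these markers in the Notch4 result was not tested.

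Of the ligands, Jag1 (ENSMUSG00000027276.7, chromosome 2, 136907192 to 136942380, minus strand) was the more abundant per exonic length on average over the 3 times. Its levels were 13.3, 19.5, 21.4 and 23.3 CPM in the iBmp2 fx/fx libraries of 6, 24, 48 and 72 h. The libraries labelled iBmp2 ko/ko had 10.9, 14.5, 22.8 and 14.3 CPM. The ranges overlapped, and at 48 h the libraries were alike within counting error (ratio 1.06, 0.957 to 1.18). For Jag1 the log2 fold change was -0.28, with a 95% interval of -1.10 to 0.55 (adjusted p = 0.807), and with the block the interval was -0.71 to 0.12 (adjusted p = 0.264).

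Jag2 (ENSMUSG00000002799.5, chromosome 12, 114146801 to 114167706, minus strand), a ligand expressed in the dental epithelium and needed for normal tooth shape, had 15.1, 8.95 and 3.90 CPM in the iBmp2 fx/fx libraries of 6, 48 and 72 h and 3.78, 3.69 and 1.70 CPM in iBmp2 ko/ko libraries. The groups came close, since the 72 h iBmp2 fx/fx library was just above the 6 h iBmp2 ko/ko library. In edgeR a log2 fold change of -1.59 ± 0.53 (SE; adjusted p = 0.238) was fitted, and one of -1.51 ± 0.22 with the block (adjusted p = 0.00371). Without the 6 h iBmp2 fx/fx library it was -1.10 and past neither limit. At 24 h the library labelled iBmp2 ko/ko had 11.7 CPM against 8.26 CPM in the iBmp2 fx/fx library, a 1.42-fold higher level (1.19 to 1.69). The 7 epithelial markers had sums of 0.990 to 1.90 CPM in iBmp2 fx/fx and 0.425 to 1.02 CPM in iBmp2 ko/ko cells at 6, 48 and 72 h and 1.85 CPM in the library labelled iBmp2 ko/ko at 24 h, with a slight overlap of the first 2 ranges. Most of this was Krt14, with at most 41 reads (log2 fold change -1.39, adjusted p = 0.275), while Krt5 and Amelx had at most 1 read and Ambn had 0. Their part in the Jag2 result was not tested.

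The 24 h library labelled iBmp2 ko/ko lay nearer to iBmp2 fx/fx for some genes and to iBmp2 ko/ko for others. Its nearness was worked out for the members only, so no share over all genes stands beside it. For Notch4, Jag2, Hey1, Hey2 and Hes1, 5 of the 9 genes tested, its log2 CPM was closer to the average of the iBmp2 fx/fx libraries of the other 3 times than to that of iBmp2 ko/ko libraries. For Notch1, Notch2, Notch3 and Jag1 it lay nearer to the iBmp2 ko/ko mean. The distance from the nearer mean was small for Hes1 (-0.04), Notch4 (-0.04), Notch3 (-0.03), Jag1 (-0.08) and Hey1 (0.14), in log2 units. It was larger for Notch1 (-0.21), Notch2 (0.34), Jag2 (0.53) and Hey2 (-0.81). For Notch1 and Jag1 the genotypes were not told apart (log2 fold changes of -0.25 and -0.28), and Hey2 had 5 reads there. Nearness to a mean therefore says little for these genes. The 24 h iBmp2 fx/fx library lay nearer to the iBmp2 fx/fx mean for all 9 genes, although its Hey1 level was 1.87 below that mean. The iBmp2 fx/fx levels of Hey1 thus varied 4.76-fold, from 24 h to 48 h.

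Between the 24 h libraries, the one labelled iBmp2 ko/ko was the higher for Notch4, Jag2, Hey1 and Hes1. Notch1, Notch2 and Notch3 alone were lower at all 4 times, with the 24 h library labelled iBmp2 ko/ko counted as its label says. Over all 8 libraries no member passed the adjusted limit in edgeR, without the block, as no gene did (0% of 13053 tested), or with it, when 0.253% of all genes did. At the unadjusted limit without the block Notch3 alone passed, at -1.14 ± 0.33 (SE; adjusted p = 0.483), against 3.55% of all genes. Whether the 24 h library labelled iBmp2 ko/ko holds the cells its label names was not tested here, since Bmp2 reads were lacking in every library but 1.

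**Figure D4:**
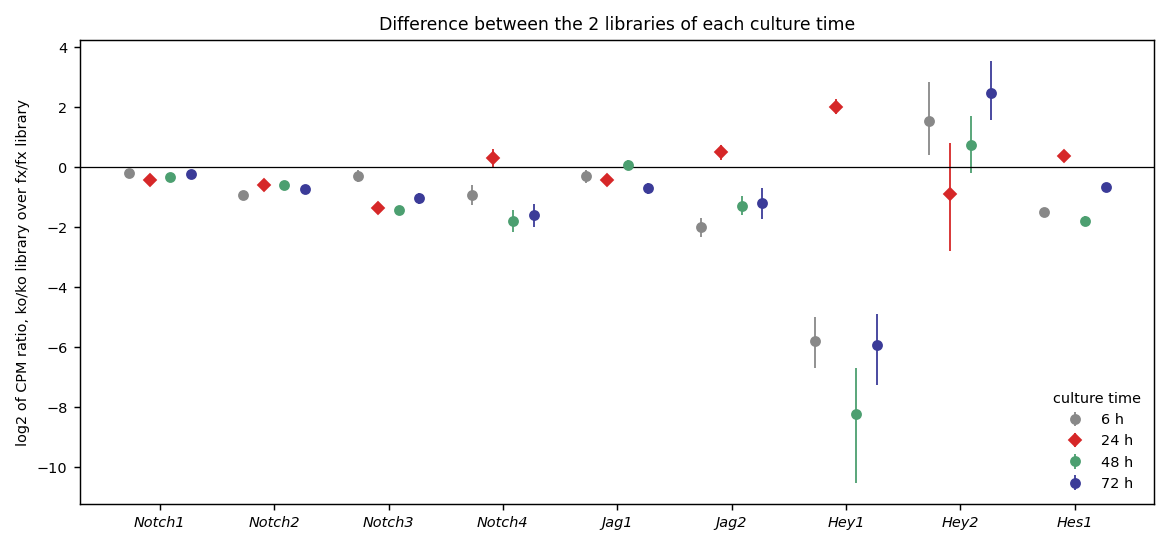
Log2 of the CPM ratio between the iBmp2 ko/ko and the iBmp2 fx/fx library at each culture time, 1 library against 1, with exact 95% counting intervals. The 24 h points (diamonds) of Notch4, Jag2, Hey1 and Hes1 lie above 0 and those of the other 3 times below it.

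Changes with culture time were tested on 7 libraries, without the 24 h library labelled iBmp2 ko/ko, as a trend on the log2 of time with genotype as a term. No member passed an adjusted p of 0.05 in edgeR, nor did any of the 13208 genes tested (0%), although 3441 of these and 4 members had an unadjusted p under 0.05. The slopes of those 4 were 0.16 per doubling of time for Notch1 (standard error 0.04, adjusted p = 0.121), 0.23 for Notch2 (0.06, adjusted p = 0.116), 0.24 for Jag1 (0.07, adjusted p = 0.127) and -0.29 for Jag2 (0.11, adjusted p = 0.168). DESeq2 called 12.8% of all genes tested, among them Notch1, Notch2 and Jag1. The levels of these 3 members were lowest at 6 h in both genotypes. Jag2 had its highest iBmp2 fx/fx level at 6 h and its lowest at 72 h, and the 72 h level was 0.258 of that at 6 h in iBmp2 fx/fx cells and 0.450 in iBmp2 ko/ko cells.

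The slopes of Notch4 (-0.004 with a standard error of 0.08), Hes1 (0.08 with 0.10) and Hey1 (-0.09 with 0.20) were within about their standard error of 0. A difference of the slopes between the genotypes was not called for any member or for any of the genes tested (0%) in edgeR, with 0 members and 133 genes at an unadjusted p under 0.05, and DESeq2 called 0 members and 0.00757% of all genes. The slope differences of the members ranged from -0.31 for Hey1 (standard error 0.45) to 0.23 for Jag2 (0.24), and with 7 libraries differences of this size could not be told from 0.

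The rest of the pathway was followed in a list of 51 other genes, all found in the gene table, of which 42 were tested. In the iBmp2 ko/ko cells 23 were lower and 19 higher, with a median log2 fold change of -0.02. Of all genes tested 46.4% were lower. At the adjusted limit 1 was lower (Dlk2) and 0 higher, and at the unadjusted limit 4 were lower (Dlk2, Lfng, Neurl1a and Maml3) and 2 higher (Dtx4 and Hes6). With the block over 6 libraries Dlk2, Lfng, Neurl1a and Maml3 were lower and Dtx4 higher at the adjusted limit. Over all genes, 1.29% were lower at the adjusted limit, 4.04% lower and 3.31% higher at the unadjusted limit, and 4.67% lower and 3.78% higher at the adjusted limit with the block.

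Dlk2, a membrane protein related to the Delta ligands that can dampen Notch signals, had 4.86, 8.42 and 7.32 CPM in the iBmp2 fx/fx libraries of 6, 48 and 72 h and 1.46, 0.883 and 1.24 CPM in iBmp2 ko/ko libraries. All 3 iBmp2 ko/ko libraries were below every iBmp2 fx/fx library. It fell by 2.52 on the log2 scale with a standard error of 0.36 (adjusted p = 0.0207). It passed the adjusted limit in 2 of the 6 fits that left out 1 library, once without iBmp2 fx/fx at 6 h and once without iBmp2 ko/ko at 72 h. At 24 h it was 6.46 CPM in the iBmp2 fx/fx library and 4.32 CPM in the library labelled iBmp2 ko/ko. Of the other Delta-type ligands, Dll1 averaged 0.919 CPM in the iBmp2 fx/fx and 1.12 CPM in iBmp2 ko/ko cells, and Dll3, Dll4, Dlk1 and Dner were below the filter.

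Of the other 5 genes, Lfng, a glycosyltransferase that alters the response of Notch to its ligands, had 24.7 ± 2.71 CPM in the iBmp2 fx/fx and 10.8 ± 3.0 CPM in iBmp2 ko/ko cells (SD, n = 3), and a fold change, in log2, of -1.19 (adjusted p = 0.0915). Neurl1a, a ubiquitin ligase that acts on ligands, had a log2 fold change of -1.27 (adjusted p = 0.324) and Maml3, a Mastermind coactivator, one of -1.28 (adjusted p = 0.184). Dtx4, a Deltex ubiquitin ligase that acts on receptors, was higher in each iBmp2 ko/ko library, by 2.15 on the log2 scale (adjusted p = 0.126), and Hes6, an inhibitor of Hes1, had a difference of 1.03 (adjusted p = 0.355). At 24 h Lfng, Neurl1a and Maml3 were at 23.8, 16.7 and 14.5 CPM in the library labelled iBmp2 ko/ko, above the 17.4, 10.7 and 14.2 CPM of the iBmp2 fx/fx library, whereas Dtx4 and Hes6 were higher there as well.

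None of the 10 cleavage genes (Adam10, Adam17, Furin and the γ-secretase subunits) passed a limit in the fit of 6 libraries, and their median log2 fold change was 0.04, with values from -0.48 for Adam17 (adjusted p = 0.446) to 0.99 for Psen2 (adjusted p = 0.411). Aph1b and Aph1c are close paralogs, so reads that map to both may be missing from their counts. Of the 11 nuclear genes Rbpj, the DNA-binding partner of the Notch intracellular domain, had 69.1 ± 20.6 CPM in the iBmp2 fx/fx and 66.2 ± 16.0 CPM in iBmp2 ko/ko cells (SD, n = 3), and only Maml3 passed the unadjusted limit. Nrarp, a Notch target that feeds back on the pathway, had 2.15 ± 1.24 and 1.66 ± 0.789 CPM, a log2 fold change of -0.36 (adjusted p = 0.829). Of the other Hes genes, Hes2, Hes3 and Hes5 were below the filter in these cells.

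**Figure D5:**
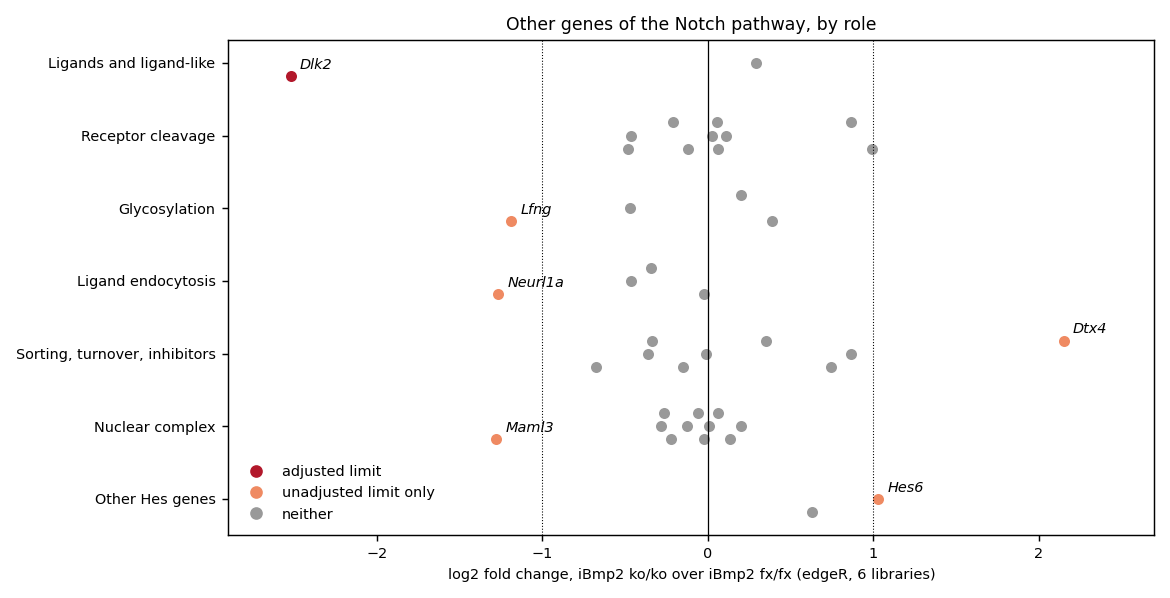
Log2 fold change of the 42 other Notch pathway genes tested, iBmp2 ko/ko over iBmp2 fx/fx cells over 6 libraries in edgeR, 1 point per gene in rows by role. Dark red marks the adjusted limit (Dlk2 at -2.52), orange the unadjusted limit only and grey neither; the vertical scatter within a row has no meaning.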

How the data were processed

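Libraries of total RNA (TruSeq) were read as unpaired reads of 50 bases per the labels, whereas the methods of the study name paired reads. Per the labels and the submitters' processing notes, the authors used CASAVA 1.8.2, aligned the reads with TopHat2 2.0.8b to mm9 and counted them with HTSeq, and the deposited values are unnormalized counts per gene symbol and per lncRNA symbol. The annotation and strand setting of the counting are not given in the sources used here. The 5 HTSeq counters at the end of each table, 52.0 to 59.0% of a table's total, were left out. They include alignments to several positions, so near-identical genes are undercounted. No 2 libraries held identical counts.

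Groups and times came from the labels. The design text names 8 h in place of 6 h. The times of the main comparison (6, 48 and 72 h) and the unadjusted limit follow the study's methods, and the adjusted limit follows one of its figure captions. Genes were tested in R 4.3.3 with edgeR 4.0.16 (TMM, the default filter of at least 10 counts and 15 in total, quasi-likelihood test, Benjamini-Hochberg adjustment over all genes tested). The standard error was taken as the log2 fold change over the square root of F. The alternatives were all 8 libraries, 7 libraries, the culture time as a replicate block, DESeq2 1.42.0, limma 3.58.1 (log2 CPM, 0.5 added), other scalings and filters, and leaving out each library in turn. The libraries of a time carry the same label, and their deviations from the genotype means had correlations, taken over genes, of 0.713 (6 h), 0.535 (48 h) and 0.840 (72 h), so the times pair the libraries. The tests were also run on simulated counts, and the outcome is not given here. The counts simulated for the genotype test held no effect of culture time, so they cannot vouch for it under the spread over times.

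Log2 CPM for the 24 h libraries used a prior count of 2. Locations, merged exon lengths and promoter windows (250 bases before the most upstream start of a coding transcript) came from GENCODE M1 and its mm9 genome. The rule for named genes took the 10 members, Bmp2 and those other pathway genes past the adjusted limit (Dlk2), with genes under the filter by name only. The other pathway genes and the markers given with values were chosen after their values were seen. The members, the pathway list and the marker lists were chosen with earlier results of these data known. Figures were made with Python 3.11.15 and matplotlib 3.10.9.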

Additional observations from a re-analysis of the deposited data

Results flagged for a closer look

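The Hey1 level of the 24 h library labelled iBmp2 ko/ko stood far from the other 3 iBmp2 ko/ko libraries. It was 25.2 CPM against 0.0981 to 0.442 CPM, a gap of 0.986 of the range of the 4 libraries, above the critical value of 0.829 for 4 samples in Dixon's test. Among the 18 sets of 4 libraries examined (the members with more than 3 reads in a library, by genotype) it was the only such value, where chance gives about 1 in 20. The cause was not tested.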

How the results depend on the processing

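The direction of each of the 9 members tested was kept in all 142 fits of single members under the 16 alternatives, and 131 of these also kept their side of the adjusted limit. The number of members past the adjusted limit was 1 in the fit given first. It was 5 with the culture time as a replicate block over 6 libraries, 4 with DESeq2, 2 with 7 libraries, 1 to 2 when 1 library was left out, and 0 with all 8 libraries, with the replicate block over 8 libraries, and with at least 10 counts in every library, a filter under which Hey1 and Hey2 were not tested. The calls over all genes numbered 287 in the fit given first, 1109 with the block over 6 libraries, 659 with DESeq2, 412 with 7 libraries, 9 to 378 without 1 library, 0 with all 8 libraries, 33 with the block over 8 and 144 with at least 10 counts in every library. At the unadjusted limit the number was 6, and it was 1 with all 8 libraries, 3 with the block over 8 and 4 to 6 without 1 library, where 964, 463, 663 and 781 to 1343 of all genes passed. Of the other pathway genes 1 passed the adjusted limit, against 5 with the block over 6 libraries, 4 with DESeq2, 2 with 7 libraries, 0 with all 8 or with the block over 8, and 0 to 2 without 1 library. At the unadjusted limit 6 passed, against 2 with all 8 libraries, 2 with the block over 8, and 3 to 9 without 1 library, beside the same calls over all genes, with the 9 in the fit that called 1343. A trend with culture time was called for 0 members, 3 with DESeq2 and 0 to 1 without 1 library (Notch2 without the iBmp2 ko/ko library of 48 h, a fit that called 1069 of 13350 genes). A difference of the slopes between genotypes was called for 0 members under each alternative. The cause of these differences was not tested. For Hey1, the adjusted p ranged from 1.48e-36 to 0.673 over its alternatives. Scaling by library totals or by the size factors of DESeq2 moved no member across the adjusted limit. Depth limits the levels of Heyl and Hey2 in all libraries and that of Hey1 in iBmp2 ko/ko cells at 6, 48 and 72 h, with 13, 3 and 7 reads.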
